A study of Mus musculus with 6 samples.

Results

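The glycolysis and pentose phosphate genes are 38 of the 54532 gene identifiers in the count files of this series. They were taken by name from a list of glucose transport, glycolysis, lactate and pentose phosphate genes, and each had to be present in all 6 count files once Ensembl identifiers had been translated to gene symbols. By role they are 3 glucose transporters, 4 kinases that phosphorylate glucose, 7 enzymes of upper glycolysis, 2 enzymes that make and remove fructose 2,6-bisphosphate, 8 genes of lower glycolysis, 4 genes of lactate production and transport, 5 genes of pyruvate use by mitochondria, 4 pentose phosphate enzymes and the mitophagy receptor Bnip3. The study is about c-Jun and JunB, subunits of the transcription factor AP-1, in dendritic cells, and its RNA-seq libraries put the question of which genes differ when both factors are deleted. RNA came from type 1 conventional dendritic cells (cDC1s FL) that had been grown from mouse bone marrow with 80 ng/mL FLT3L, a cytokine of dendritic cell development, and sorted on day 8 by CD24 and CD11c, leaving out cells with B220, CD115 or CD172a. The 3 libraries called fl/fl 1, fl/fl 2 and fl/fl 3 have the genotype c-Jun/JunB fl/fl, with no Cre named in their labels. The 3 libraries called Δ/Δ 1, Δ/Δ 2 and Δ/Δ 3 are c-Jun/JunB Δ/Δ Itgax-Cre by genotype, written in the labels as c-Jun/JunB fl/fl Itgax-Cre. Floxed Jun and Junb alleles are thus shared by both groups, and Cre is driven by the Itgax (CD11c) promoter, so deletion is limited to cells that have used this promoter or descend from such cells. For the study as a whole the methods give mice of both sexes, 8 to 16 weeks old, on a background that mixes 129 Sv × C57BL/6. The labels do not say how the 3 replicates of a group were made. A supplementary legend of the study, on transcription factors in these samples, counts its dots as individual mice, which fits 1 mouse for each library. The p-values measure the spread between these samples.

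Glucose enters cells through transporters of the GLUT family (Slc2a genes), is held there as glucose-6-phosphate by hexokinases, and is then broken down by glycolysis to pyruvate, or diverted into the pentose phosphate pathway, which supplies NADPH and ribose. Dendritic cells use more glucose once they sense microbes, and glycolysis then feeds fatty acid synthesis and secretion. Several steps have isozymes that differ in kinetics and control, and many of these genes are known targets of HIF-1α and MYC.

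Reads on genes numbered 25860931, 26788296 and 23666519 in the fl/fl libraries and 24429016, 21693217 and 22874838 in the Δ/Δ libraries. Unmapped reads made up 3.964 to 4.198% in fl/fl and 3.263 to 3.439% in Δ/Δ. Reads mapped outside annotated genes made up 8.569 to 9.228% and 9.35 to 10.313%, and reads ambiguous between genes 1.81 to 1.895% and 1.9 to 1.976%. These measures separated the groups, while the shares of multimapping reads and of reads on genes overlapped. Their part in the members' values was not tested. Each value is a CPM, the reads of a gene for every 1000000 reads on genes, scaled with TMM factors of edgeR (0.9891 to 1.0097). Libraries of a group differed by more than sampling noise, with a chi-square per degree of freedom of 6.35 to 10.4 between fl/fl libraries and 27.9 to 38.5 between Δ/Δ libraries, so the Δ/Δ group is the more variable. Pairs across genotypes gave 28.1 to 57.8. Δ/Δ 1 was about as far from the fl/fl libraries (28.1 to 32.9) as from Δ/Δ 2 (38.5) and Δ/Δ 3 (29.8). For a gene with no read in a whole group, a count of 0 allows up to 3 reads over its libraries, or 0.0393 CPM for fl/fl and 0.0435 CPM for Δ/Δ. Such floors, and the binomial intervals given for shares, cover counting error only. Between genotypes, fewer cells of a type and less RNA per cell cannot be told apart in these bulk libraries.

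The deleted genes were checked first. Junb measured 314, 274 and 413 CPM in the libraries fl/fl 1, 2 and 3, against 110.3, 171 and 211 CPM in the libraries Δ/Δ 1, 2 and 3, so every Δ/Δ library lay below every fl/fl library. Its log2 difference (Δ/Δ minus fl/fl) was -1.02 with an SE of 0.25 and an adjusted p of 0.0729 by the quasi-likelihood test of edgeR after Benjamini-Hochberg (BH) adjustment, which became 0.0359 without Δ/Δ 1 and ran from 0.000119 to 0.228 over the alternatives. Jun measured 70.9, 52.4 and 63.1 CPM against 48.1, 44.2 and 60.4 CPM, with overlapping groups (log2 difference -0.29, SE 0.15, adjusted p 0.345 by edgeR). Reads of both genes remained in Δ/Δ libraries, and the counts do not tell intact from deleted alleles. From quantitative RT-PCR, the paper reports deletion of both genes in conventional dendritic cells sorted from spleen and lymph nodes of mice with this genotype. It also measured both transcripts by RT-qPCR in cDC1s FL of such cultures. Those measurements were not analysed here. Itgax, the gene whose promoter drives Cre and which encodes the sort marker CD11c, fell from 114, 128 and 153 CPM to 44.7, 55.1 and 69.0 CPM. The edgeR adjusted p for Itgax was 0.0147 at a log2 difference of -1.22, and leaving out fl/fl 1, 2 or 3 gave 0.0526, 0.0781 and 0.0505, within a range of 2.12e-10 to 0.0781 over the alternatives. The remaining sort markers were Cd24a (487, 488 and 502 CPM against 366, 401 and 429 CPM), Sirpa for CD172a (44.7, 45.2 and 60.5 CPM against 42.3, 46.8 and 40.8 CPM), Csf1r for CD115 (3.58 to 6.80 CPM in all libraries) and Ptprc, whose B220 isoform counts per gene do not resolve (926, 1011 and 978 CPM against 1104, 1095 and 1259 CPM). None of these 4 passed by edgeR or limma-voom, while Cd24a and Ptprc had an unadjusted p under 0.05 in edgeR and passed by DESeq2. Cd24a had an edgeR adjusted p of 0.0605 that became 0.0492 without Δ/Δ 1 and 0.0426 without Δ/Δ 3 (range over the alternatives 0.00531 to 0.234).

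Of the 38 genes, 37 had enough reads for the test. The exception was Ldhb, a lactate dehydrogenase subunit, with 0, 8 and 3 reads in fl/fl 1, 2 and 3 and 0, 0 and 8 reads in Δ/Δ 1, 2 and 3. Passing means an adjusted p under 0.05 in the edgeR quasi-likelihood test, BH-adjusted over all 12894 genes tested. Slc2a1, Slc2a3 and Eno1b passed as higher in Δ/Δ, which is 3 of 37 (8.11%), beside 262 of the 12894 genes (2.03%). No member passed as lower by edgeR, beside 238 of all genes (1.85%), while 3 members were lower at an unadjusted p under 0.05, 2 by DESeq2 and 1 by limma-voom. In the higher direction the unadjusted count was 8 members, with 6 by DESeq2 and 3 by limma-voom. At the same unadjusted limit 1327 of the 12894 genes were higher and 1169 lower. Over all genes and both directions together, 1104 passed by DESeq2 and 526 by limma-voom. By edgeR 500 genes passed in either direction (3.88%). That count became 95, 95 and 201 when fl/fl 1, 2 or 3 was left out, and 1320, 719 and 352 without Δ/Δ 1, 2 or 3. The members' count of 0 lower became 3 without Δ/Δ 1 and 2 without Δ/Δ 2. A further limit of at least 1 on the log2 difference kept Slc2a3 and Eno1b (2 of 37, 5.41%), beside 240 of all genes (1.86%). Every Δ/Δ library lay above every fl/fl library for 9 members (24.3%, beside 13.7% of all genes) and below for 5 (13.5%, beside 12.3% of all genes). The members' log2 differences ran from -0.62 to 4.79 with a median of -0.03 (all genes 0.00), 17 were positive and 20 negative, and 30 of 37 lay within 0.5 of no difference. Outside the transporters and Eno1b, 33 tested members had a median of -0.06 and none passed by edgeR, with 4 higher and 3 lower at an unadjusted p under 0.05, 2 and 2 by DESeq2, and 0 and 1 by limma-voom.

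**Figure D1:**
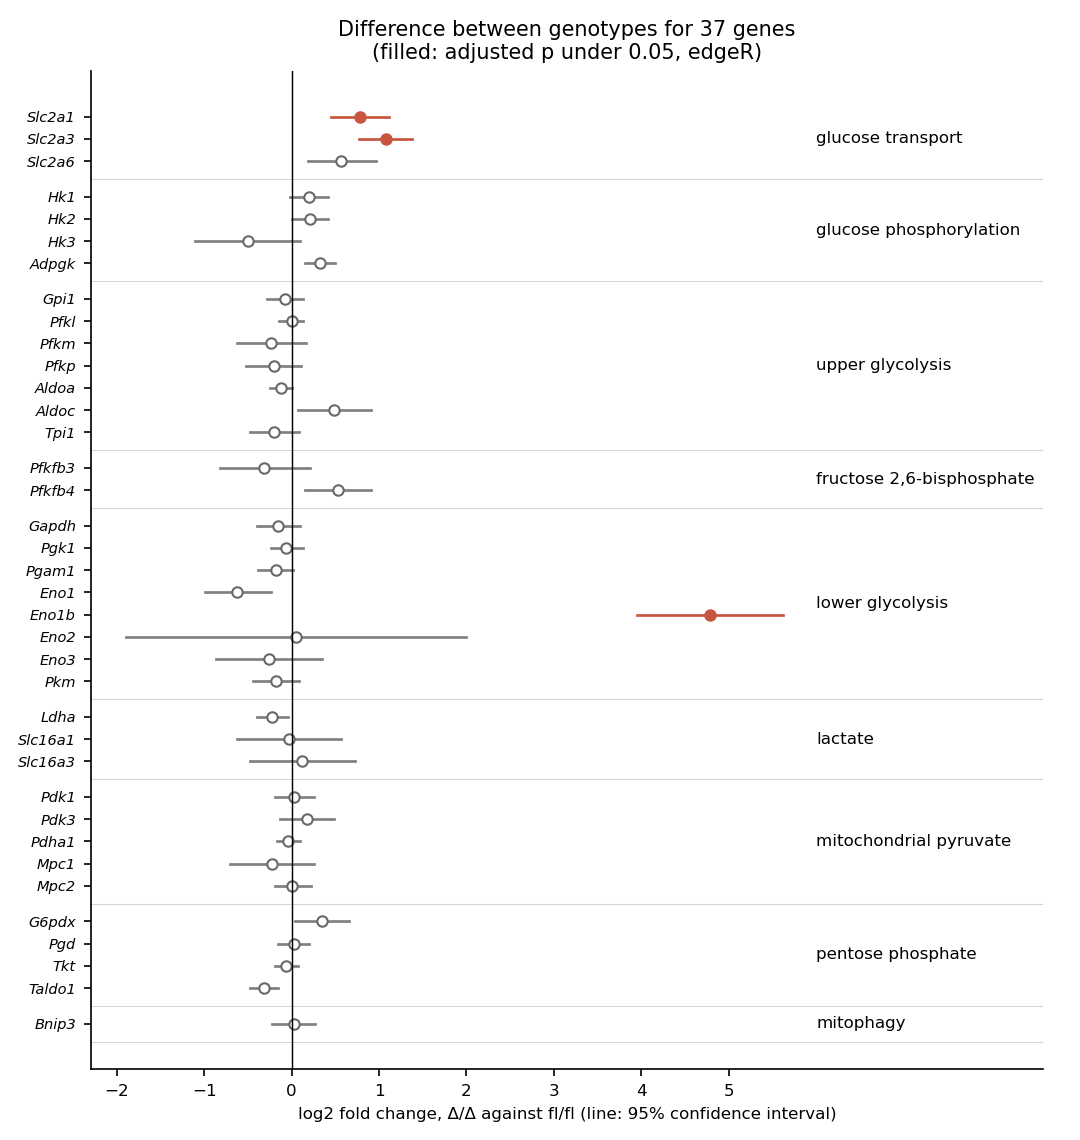
Log2 difference (Δ/Δ minus fl/fl, points) of the 37 tested members with its 95% confidence interval (lines), grouped by role, filled where the edgeR adjusted p was under 0.05. Eno1b stands at 4.79, the transporters lie between 0.57 and 1.08, and 30 of the 37 points lie within 0.5 of no difference.

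All 3 glucose transporters were higher in every Δ/Δ library than in any fl/fl library. Slc2a3 encodes GLUT3, a high-affinity glucose transporter of the cell surface (ENSMUSG00000003153.10, chr6:122727809-122801640, minus strand, GRCm38). It measured 33.9, 43.8 and 43.9 CPM in the libraries fl/fl 1, 2 and 3, against 80.7, 78.3 and 97.3 CPM in the libraries Δ/Δ 1, 2 and 3. All 3 Δ/Δ libraries were high, and the lowest of them stood well above the highest fl/fl library. The mean rose from 40.5 ± 5.71 to 85.4 ± 10.4 CPM (SD, n = 3 each), a log2 difference of 1.08 with an SE of 0.13, or 2.11-fold (95% confidence interval 1.71 to 2.6), with an edgeR adjusted p of 0.00793. Slc2a3 passed in 13 of 13 alternatives, with adjusted p from 6.96e-12 to 0.0493. Slc2a1 encodes GLUT1, the widely used basal glucose transporter (ENSMUSG00000028645.11, chr4:119108711-119137983, plus strand). Its values were 21.9, 25.9 and 27.1 CPM in the fl/fl libraries and 39.2, 51.3 and 38.5 CPM in the Δ/Δ libraries. Δ/Δ 2 was the highest library. Slc2a1 rose from 25 ± 2.72 to 43.0 ± 7.16 CPM (SD, n = 3 each), 1.72-fold (1.37 to 2.16), with a log2 difference of 0.78, an SE of 0.14 and an edgeR adjusted p of 0.0285. This call needed all 3 fl/fl libraries, since leaving out fl/fl 1, 2 or 3 gave an adjusted p of 0.143, 0.134 and 0.0824, while the log2 difference stayed between 0.64 and 0.86. Over the 13 alternatives the adjusted p of Slc2a1 ran from 5.09e-05 to 0.143 and passed in 10.

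Slc2a6 encodes GLUT6, a transporter found mainly on lysosomal membranes (ENSMUSG00000036067.12, chr2:27021363-27027998, minus strand). It measured 48.2, 44.1 and 54.0 CPM in the fl/fl group against 57.2, 89.3 and 71.2 CPM in Δ/Δ libraries. Here too every Δ/Δ library lay above every fl/fl library, but Δ/Δ 1 stood only just above fl/fl 3. The log2 difference of Slc2a6 was 0.57 with an SE of 0.16, and the edgeR adjusted p of 0.109 missed the threshold. It was 0.0156 without Δ/Δ 1 and 0.0129 by DESeq2, within a range of 0.0129 to 0.345 over the alternatives. Summed over the 3 transporters, libraries held 104, 114 and 125 CPM in the fl/fl group against 177, 219 and 207 CPM in the Δ/Δ group. Per kb of exon, Slc2a6 was the most abundant transporter in fl/fl at 22.8 RPKM (CPM per kb), ahead of Slc2a3 at 10.2 and Slc2a1 at 7.66 RPKM, and in Δ/Δ the RPKM levels were 33.9, 21.6 and 13.2 in the same order.

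RefSeq promoter windows (GRCm38.p6, 250 bases before to 50 after a start) matched 36 of the 38 genes with 51 windows. In the set of windows used, Slc2a3 and Eno1b have no entry. Letters were searched on both strands for TGANTCA, the AP-1 consensus, TGACGTCA, the cyclic AMP response element that AP-1 dimers can also bind, ACGTG, the core of the hypoxia response element, CACGTG, the E box bound by MYC, which holds ACGTG on both strands, and TGACNNNGC, the core of the antioxidant response element, which can overlap TGANTCA. The windows of Slc2a1 (chr4:119108495-119108794, plus strand) and Slc2a6 (chr2:27027949-27028248, minus strand) are shown because these transporters had higher values in Δ/Δ, and those of Ldha (chr7:46845554-46845853, plus strand) and Aldoa (chr7:126799205-126799504, minus strand) because they hold the members' matches to TGACGTCA and TGANTCA. Each runs 5′ to 3′ along the gene's strand, with capitals marking every match to any of the 5 motifs.
Slc2a1: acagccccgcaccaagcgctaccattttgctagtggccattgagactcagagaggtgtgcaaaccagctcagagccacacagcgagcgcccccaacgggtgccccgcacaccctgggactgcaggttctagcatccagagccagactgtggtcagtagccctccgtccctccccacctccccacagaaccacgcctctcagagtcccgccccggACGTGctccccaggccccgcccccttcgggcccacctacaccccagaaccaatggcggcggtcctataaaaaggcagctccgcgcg
Slc2a6: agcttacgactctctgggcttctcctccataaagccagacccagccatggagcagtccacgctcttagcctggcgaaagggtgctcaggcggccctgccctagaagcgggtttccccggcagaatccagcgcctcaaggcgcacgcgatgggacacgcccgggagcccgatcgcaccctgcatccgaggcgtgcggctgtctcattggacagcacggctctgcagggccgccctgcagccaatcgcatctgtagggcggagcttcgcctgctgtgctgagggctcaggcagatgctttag
Ldha: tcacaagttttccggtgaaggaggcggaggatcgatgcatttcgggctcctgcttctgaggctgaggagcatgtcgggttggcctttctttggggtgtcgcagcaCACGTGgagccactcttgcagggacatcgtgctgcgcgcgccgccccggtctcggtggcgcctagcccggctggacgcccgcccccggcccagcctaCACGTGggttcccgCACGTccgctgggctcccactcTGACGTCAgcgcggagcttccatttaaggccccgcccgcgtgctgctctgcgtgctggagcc
Aldoa: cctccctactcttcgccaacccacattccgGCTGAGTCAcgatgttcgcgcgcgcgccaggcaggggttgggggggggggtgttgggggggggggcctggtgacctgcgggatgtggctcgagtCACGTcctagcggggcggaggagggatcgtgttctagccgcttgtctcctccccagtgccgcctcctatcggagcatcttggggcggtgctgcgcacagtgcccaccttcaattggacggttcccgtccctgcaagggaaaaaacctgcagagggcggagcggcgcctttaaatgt
The Slc2a1 window holds 1 match, ACGTG 36 bases upstream of the start, and the Slc2a6 window holds none. In the Ldha window TGACGTCA lies 12 bases upstream, with CACGTG at 145 and 48 bases and a reverse-strand ACGTG at 34 bases. The Aldoa window has TGAGTCA 218 bases upstream, overlapped by a reverse-strand match to TGACNNNGC that starts 220 bases upstream, and a reverse-strand ACGTG at 126 bases. Among the members' windows 1 held TGANTCA (1.96%, beside 7.81% of all 32851 windows) and 1 held TGACGTCA (1.96%, beside 1.79%). ACGTG was in 22 windows of 19 member genes (43.1%, beside 19.6% of all windows), CACGTG in 5 (9.80%, beside 7.15%) and TGACNNNGC in 6 (11.8%, beside 12.4%). These are matches of letters, and no binding was measured in these libraries.

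**Figure D2:**
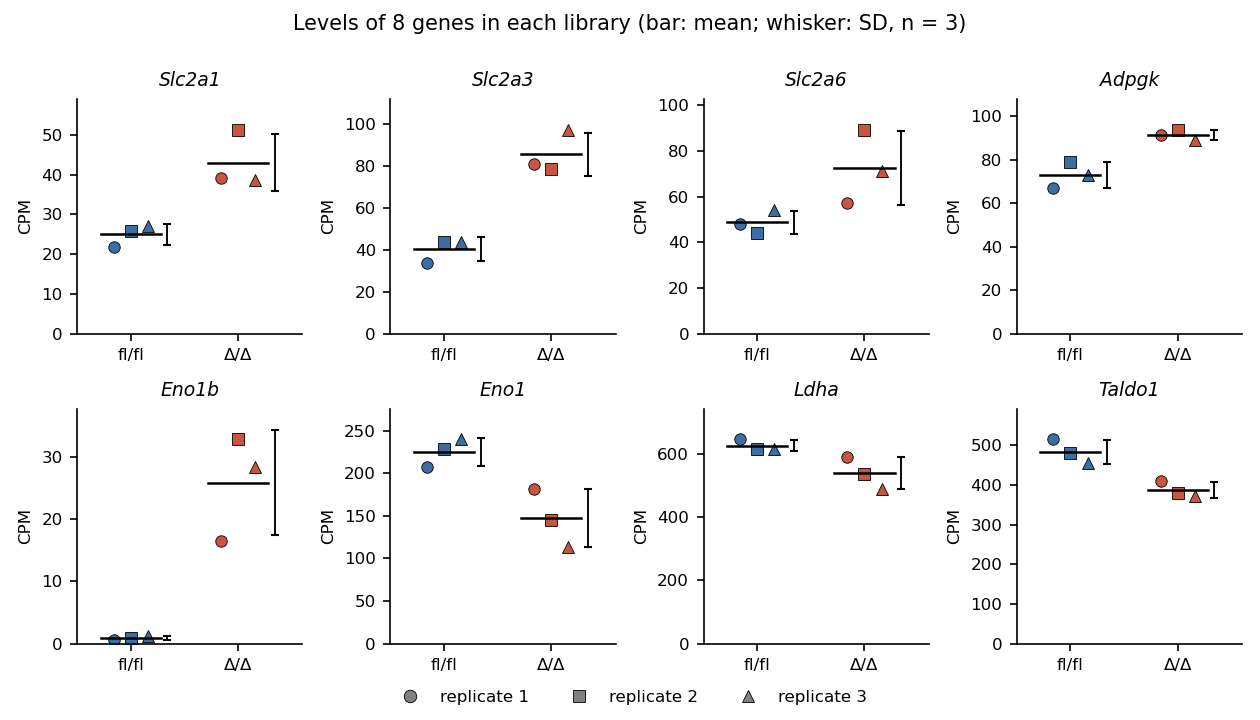
CPM of 8 members in each library (points, with the marker shape giving the replicate number), with the mean (bar) and SD (whisker, n = 3) of fl/fl and Δ/Δ. Slc2a1, Slc2a3, Slc2a6, Adpgk and Eno1b are higher in all 3 Δ/Δ libraries, and Eno1, Ldha and Taldo1 lower, without overlap.

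The first enzymatic step traps glucose as glucose-6-phosphate. Adpgk, a kinase that uses ADP in place of ATP, measured 67.2, 79.1 and 73.0 CPM in the fl/fl group against 91.6, 93.9 and 89.3 CPM in Δ/Δ libraries. Its groups did not overlap and its Δ/Δ libraries were close to each other, yet the edgeR adjusted p was 0.0600 at a log2 difference of 0.33 (SE 0.07). By DESeq2 the adjusted p was 0.0102, the lowest of a range of 0.0102 to 0.221 over the alternatives, and the only one of 13 that passed. None of the 3 hexokinases passed by edgeR, DESeq2 or limma-voom, nor had one an unadjusted p under 0.05 in edgeR. Hk1, which docks on mitochondria, and Hk2, the isoform that many growing cells induce, had log2 differences of 0.20 and 0.21 (edgeR adjusted p 0.291 and 0.265). For Hk1 every Δ/Δ library, at 63.5, 61.9 and 69.8 CPM, lay above the fl/fl libraries at 50.2, 58.4 and 61.2 CPM, and for Hk2 the groups overlapped. Hk3, a hexokinase of myeloid cells, had 16.6, 11.3 and 9.49 CPM against 11.1, 8.39 and 6.95 CPM, again with overlap (log2 difference -0.50, SE 0.26). As shares of summed hexokinase RPKM (CPM per kb), Hk2 held 59.6 ± 1.97% in fl/fl and 62.1 ± 1.12% in Δ/Δ, Hk1 30.5 ± 2.39% and 31.7 ± 1.73%, and Hk3 9.82 ± 3.38% and 6.20 ± 1.41% (SD, n = 3 each).

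In upper glycolysis no gene passed by edgeR, with 1 of 7 higher and 0 lower at an unadjusted p under 0.05, and 0 by DESeq2 and by limma-voom. Gpi1, which turns glucose-6-phosphate into fructose-6-phosphate, measured 618, 603 and 679.8 CPM in the fl/fl group against 587, 547 and 671 CPM in the Δ/Δ group. Phosphofructokinase, the committed step, was mainly Pfkp, which held 76.0 ± 1.45% of the family's summed RPKM in fl/fl and 73.5 ± 4.20% in Δ/Δ (SD, n = 3 each). Pfkp measured 292, 286 and 269.6 CPM in the fl/fl group against 227, 301 and 208 CPM in the Δ/Δ group, so Δ/Δ 2 was the highest of all 6 libraries and the other Δ/Δ libraries the lowest. Its edgeR adjusted p was 0.450 and became 0.0319 without Δ/Δ 2, at a log2 difference of -0.38 (range over the alternatives 0.0319 to 0.768). Pfkl, the liver-type isozyme, was nearly level at 61.8 to 65.4 CPM in the fl/fl group against 62.7 to 64.3 CPM in Δ/Δ, and Pfkm, the muscle type, stayed at 7.69 to 12.4 CPM in all libraries. Among aldolases, which split fructose 1,6-bisphosphate, Aldoa measured 406, 401 and 412 CPM against 389, 379.5 and 353 CPM. Aldoc measured 39.0, 48.5 and 63.7 CPM against 63.8, 68.7 and 80.3 CPM. The lowest Δ/Δ library of Aldoc lay just above fl/fl 3, and neither aldolase passed by edgeR (log2 difference -0.12 and adjusted p 0.308 for Aldoa, 0.49 and 0.190 for Aldoc). A second identifier named Aldoa (ENSMUSG00000114515.2) had 41, 25 and 15 reads in fl/fl and 17, 10 and 5 reads in Δ/Δ libraries and was not used. Per kb, Aldoc made up 7.05 ± 1.55% of aldolase RPKM in fl/fl and 10.5 ± 1.6% in Δ/Δ. Tpi1, which interconverts the triose phosphates, had 120.1, 112 and 112 CPM in the fl/fl group against 119, 97.7 and 84.5 CPM in Δ/Δ libraries.

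Fructose 2,6-bisphosphate, the main activator of phosphofructokinase, is made and removed by PFKFB enzymes. Pfkfb3, whose enzyme strongly favours synthesis, measured 282, 228 and 250.4 CPM in the fl/fl group against 149, 281 and 184 CPM in the Δ/Δ group. Only Δ/Δ 2 reached the fl/fl range, and the edgeR adjusted p of 0.485 became 0.0428 without Δ/Δ 2, with the log2 difference going from -0.31 to -0.61 (range over the alternatives 0.0428 to 0.783). Pfkfb4, the second isozyme here, measured 23.9, 24.8 and 27.3 CPM against 32.2, 31.2 and 46.4 CPM. All Δ/Δ libraries of Pfkfb4 were above all fl/fl libraries and Δ/Δ 3 was the highest, at a log2 difference of 0.53 (SE 0.16) and an edgeR adjusted p of 0.132. DESeq2 gave 0.0342, the lowest over the alternatives, where the highest was 0.394. As a share of PFKFB RPKM, Pfkfb4 made up 11.8, 14.7 and 14.7% in fl/fl 1, 2 and 3 and 25.5, 15 and 28.5% in Δ/Δ 1, 2 and 3. Its share was thus high in Δ/Δ 1 and Δ/Δ 3, while Δ/Δ 2 was close to the fl/fl libraries.

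**Figure D3:**
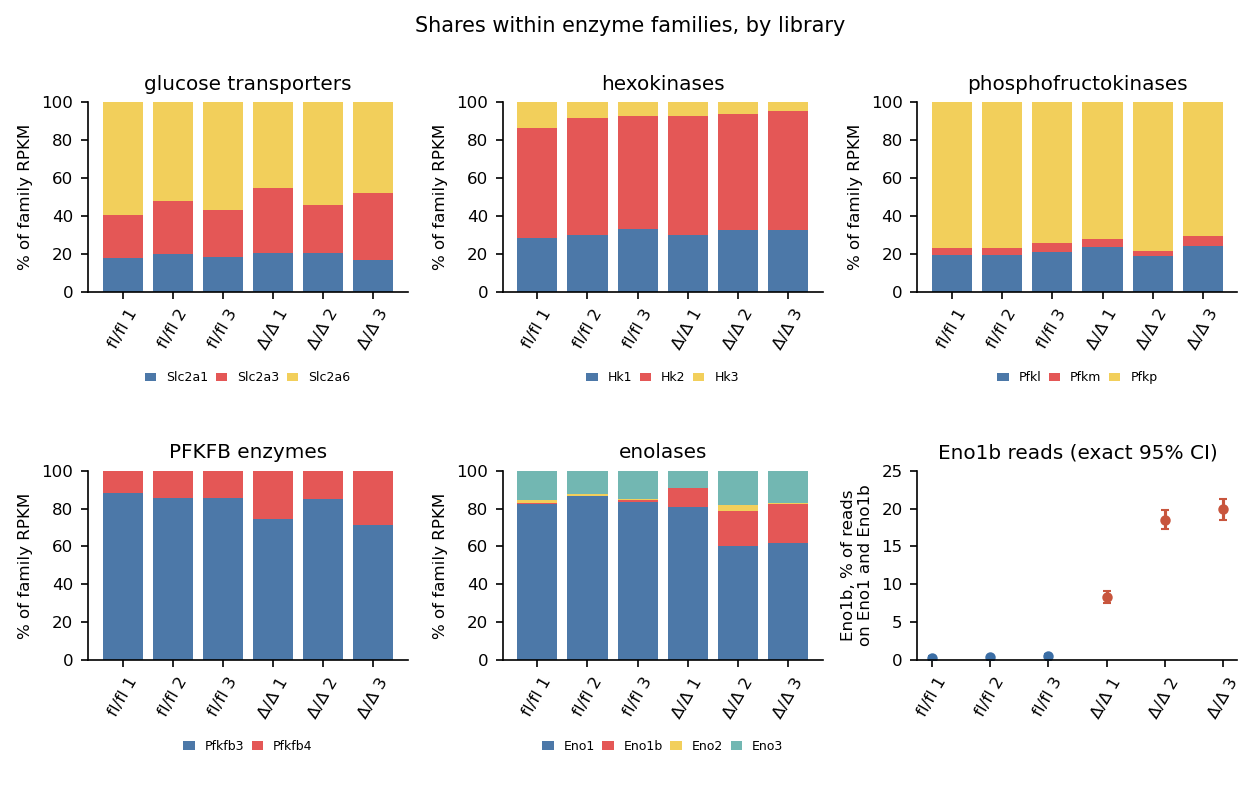
Stacked bars give each isozyme's percentage of its family's summed RPKM (CPM per kb of exon) in each of the 6 libraries for transporters, hexokinases, phosphofructokinases, PFKFB enzymes and enolases, and the last panel gives Eno1b as a percentage of Eno1 plus Eno1b reads with exact 95% intervals. Eno1b reads make up 0.315 to 0.528% in fl/fl and 8.28 to 19.9% in Δ/Δ libraries.

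Lower glycolysis turns glyceraldehyde-3-phosphate into pyruvate and yields ATP. Gapdh, the first enzyme of this stretch (459 to 502 CPM in fl/fl, 369.8 to 489 CPM in Δ/Δ), Pgk1, a kinase that yields ATP (97.2 to 104 and 86.4 to 103 CPM), the mutase Pgam1 (34.7 to 39.2 and 31.2 to 34.3 CPM) and Pkm, the pyruvate kinase (475 to 518 and 369.7 to 505 CPM), had log2 differences of -0.15, -0.06, -0.18 and -0.18. In each of these 4 genes Δ/Δ 3 was the lowest of the 6 libraries, and only Pgam1 had groups that did not overlap. None of the 4 passed by edgeR, where 0 of them had an unadjusted p under 0.05, nor by DESeq2 or limma-voom. Eno2, the neuronal enolase, ran from 0.568 to 7.92 CPM within the Δ/Δ group alone, lowest in Δ/Δ 1 and highest in Δ/Δ 2. Eno3, the muscle enolase, measured 24.2, 19.8 and 26.2 CPM against 12.7, 26.8 and 19.2 CPM with the same order of the Δ/Δ 1 and Δ/Δ 2 libraries.

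Enolase, which makes phosphoenolpyruvate, had the largest difference among the members. Eno1 (ENSMUSG00000063524.13, chr4:150236721-150248879, plus strand) encodes the common enolase, and Eno1b (ENSMUSG00000059040.4, on chromosome 18) is a nearly identical copy annotated as protein-coding. The Eno1b transcript of 1747 bases aligned to Eno1 over 1736 bases with 9 mismatches and 0 gaps (99.48% identity). Of its 1673 windows of 75 bases, the read length, 419 (25%) held a difference from Eno1. A read pair without any difference matches both transcripts, and it is left out of uniquely mapped reads where the aligner places it equally well in both genes. How the aligner placed such pairs across exon junctions was not examined. A pair is read at both ends, so more pairs than single windows hold a difference. Even so, each gene's count can rest on part of its reads, and over the aligned bases only the 9 mismatches tell the transcripts apart. Eno1b had 17, 24 and 30 reads in fl/fl 1, 2 and 3 (0.655, 0.889 and 1.27 CPM) and 406, 704 and 644 reads in Δ/Δ 1, 2 and 3 (16.5, 32.8 and 28.3 CPM). It was low in all fl/fl libraries and high in all Δ/Δ libraries, with Δ/Δ 1 the lowest of these. Eno1b rose from 0.939 ± 0.311 to 25.9 ± 8.45 CPM (SD, n = 3 each), 27.6-fold (95% confidence interval 15.5 to 49.0), at a log2 difference of 4.79 with an SE of 0.35 and an edgeR adjusted p of 0.00154. It passed in 12 of 12 alternatives that hold it, with adjusted p from 7.79e-43 to 0.0239.

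Eno1 had 5372, 6193 and 5657 reads in fl/fl and 4500, 3102 and 2593 reads in Δ/Δ libraries, or 207, 229 and 239.8 CPM against 182, 145 and 114 CPM. Every Δ/Δ library lay below every fl/fl library, and Δ/Δ 3 was the lowest. The log2 difference of Eno1 was -0.62 with an SE of 0.16 and an edgeR adjusted p of 0.0879. That value was 0.00913 without Δ/Δ 1, 0.00254 by DESeq2 and 0.0275 with no filter on low counts, within a range of 0.00254 to 0.264 over the alternatives. As a share of the reads on both genes, Eno1b made up 0.315% (exact binomial 95% interval 0.184 to 0.505) in fl/fl 1, 0.386% (0.247 to 0.574) in fl/fl 2 and 0.528% (0.356 to 0.752) in fl/fl 3. In Δ/Δ 1, 2 and 3 it made up 8.28% (7.52 to 9.08), 18.5% (17.3 to 19.8) and 19.9% (18.5 to 21.3). Δ/Δ 1 was nearest to fl/fl in CPM for both genes, while Δ/Δ 3 was lowest for Eno1 and Δ/Δ 2 highest for Eno1b. Eno1 and Eno1b summed to 208, 230.3 and 241 CPM in the fl/fl group against 199, 177 and 142 CPM in the Δ/Δ group, so the sum still separated the groups. With all 7 annotated copies of Eno1 added, the log2 difference was -0.38 (95% confidence interval -0.67 to -0.09) with an edgeR adjusted p of 0.149. Next to Eno1b, the copy of Eno1 with the most reads was the pseudogene Gm4735, with 8, 8 and 12 reads in fl/fl and 14, 18 and 26 reads in Δ/Δ. Whether reads moved from one copy to the other between genotypes was not tested, since the files hold counts and no reads.

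Lactate dehydrogenase turns pyruvate into lactate, and the enzyme's transcripts here were those of Ldha, with Ldhb at 0.0333% of the summed RPKM in fl/fl and 0.0349% in Δ/Δ libraries. Ldha measured 646, 615 and 616 CPM in the fl/fl group against 591, 537 and 489 CPM in the Δ/Δ group. The groups did not overlap, and the log2 difference of -0.22 (SE 0.08) had an edgeR adjusted p of 0.185, which became 0.0427 without Δ/Δ 1 (range over the alternatives 0.0427 to 0.466). Of the lactate carriers, Slc16a1 (MCT1) had 7.78 to 14.8 CPM and Slc16a3 (MCT4) 6.41 to 11.3 CPM over all libraries, with overlapping groups. The genes at the entry of pyruvate into mitochondria were close to level. Pdha1, the catalytic subunit of pyruvate dehydrogenase, measured 82.9 to 83.3 CPM in the fl/fl group against 76.5 to 84.0 CPM in Δ/Δ. Its inhibitory kinases Pdk1 and Pdk3 had log2 differences of 0.03 and 0.18, and the mitochondrial pyruvate carrier subunits Mpc1 and Mpc2 had -0.22 and 0.01. All 5 had groups that overlapped and none passed by edgeR, with 0 at an unadjusted p under 0.05, 0 by DESeq2 and 0 by limma-voom. Bnip3, a mitophagy receptor and a common read-out of hypoxia, measured 14.0 to 16.1 CPM in the fl/fl group against 14.7 to 15.5 CPM in Δ/Δ.

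Of the 4 pentose phosphate genes none passed by edgeR, with 1 higher and 1 lower at an unadjusted p under 0.05, 0 and 1 by DESeq2, and 0 and 1 by limma-voom. G6pdx, the entry enzyme of the oxidative branch, measured 85.5, 85.7 and 83.5 CPM in the fl/fl group against 131, 88.4 and 106 CPM in Δ/Δ libraries. All Δ/Δ libraries were above the fl/fl libraries, but Δ/Δ 2 only just, and the edgeR adjusted p was 0.210 at a log2 difference of 0.35 (SE 0.13), becoming 0.0431 without Δ/Δ 2 (range over the alternatives 0.0431 to 0.445). Pgd, the next NADPH-producing enzyme of that branch, was level at 97.6 to 107 CPM in the fl/fl group against 96.7 to 113 CPM in Δ/Δ. In the non-oxidative branch, which returns sugars to glycolysis, Tkt measured 345 to 356 CPM and 323 to 354 CPM. Taldo1, the transaldolase of that branch, measured 515, 482 and 455 CPM in the fl/fl group against 409, 381 and 372 CPM in the Δ/Δ group. Every Δ/Δ library of Taldo1 was below every fl/fl library, and its log2 difference of -0.32 (SE 0.07) came close to passing, with an edgeR adjusted p of 0.0505. Over 13 alternatives 7 passed, with adjusted p from 0.00164 to 0.209, among them 0.0247 without Δ/Δ 1. G6pdx is X-linked, as are Pgk1, Pdk3 and Pdha1, and the female transcript Xist had at most 1 read in any library while the Y-linked Ddx3y measured 103 to 126 CPM.

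Levels of different members were compared as RPKM (CPM per kb of exon). In fl/fl libraries Taldo1 had the highest level of the members at 355 RPKM, rank 154 among the genes tested, followed by Ldha at 330.3, Gapdh at 323, Aldoa at 223, Gpi1 at 219.8 and Pkm at 192 RPKM. Ldha and Gapdh did not differ beyond their SD of 9.32 and 14.6 RPKM, nor did Aldoa and Gpi1 with SDs of 2.95 and 14.1 RPKM. In Δ/Δ libraries the highest RPKM levels were those of Gapdh at 292, Ldha at 284 and Taldo1 at 284, which lay within their SDs of 40.7, 26.9 and 14.3. The transporters were far lower on this scale, as the values in RPKM above show, and Slc2a1 ranked 6570 in fl/fl. Eno1b ranked 11568 in fl/fl at 0.50 RPKM and reached 13.8 RPKM in Δ/Δ, beside 57.8 RPKM for Eno1. Of all enolase RPKM, Eno1b made up 0.470 ± 0.125% in fl/fl and 16.4 ± 5.75% in Δ/Δ, and Eno1 84.2 ± 2.02% and 67.6 ± 11.4% (SD, n = 3 each). Shares depend on the length used for each gene. With the merged exons of all annotated transcripts in place of the basic set, an alternative added after the data had been seen, Eno1b made up 0.875% in fl/fl and 25.9% in Δ/Δ, and Slc2a1 made up 25.5 and 26.3% of transporter RPKM in place of 18.8 and 19.2%. On those lengths Slc2a1 stood above Slc2a3 in fl/fl (20%) and close to it in Δ/Δ (25.6%), so the order of these genes in RPKM depends on the lengths, while Slc2a6 stayed first (54.4 and 48.1%). The transporters' summed level was higher in Δ/Δ while Slc2a1 kept nearly the same share of it, and Slc2a3 went from 25.1 ± 2.63% to 31.8 ± 5.36% of transporter RPKM, with Δ/Δ 2 at 25.6% inside the fl/fl range.

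As a whole, the 38 genes held 0.561, 0.549 and 0.552% of the reads on genes in fl/fl 1, 2 and 3 and 0.542, 0.519 and 0.488% in Δ/Δ 1, 2 and 3. The lower sums came mostly from Δ/Δ 3. Lower glycolysis summed to 1396, 1352 and 1376 CPM in the fl/fl group against 1343, 1248 and 1020.2 CPM in Δ/Δ, and the lactate genes to 665, 633 and 636 CPM against 612, 556 and 506 CPM. For 13 of 37 members (35.1%) Δ/Δ 3 was the lowest of the 6 libraries, beside 22.2% of all genes tested. Δ/Δ 2 differed from the other Δ/Δ libraries in Pfkfb3, Pfkp, Eno2, Eno3 and Slc2a6, in all of which it was the highest of the 6 libraries or of the Δ/Δ group. The map of deviations shows both patterns beside Slc2a1, Slc2a3 and Eno1b, for which fl/fl and Δ/Δ columns differ throughout.

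**Figure D4:**
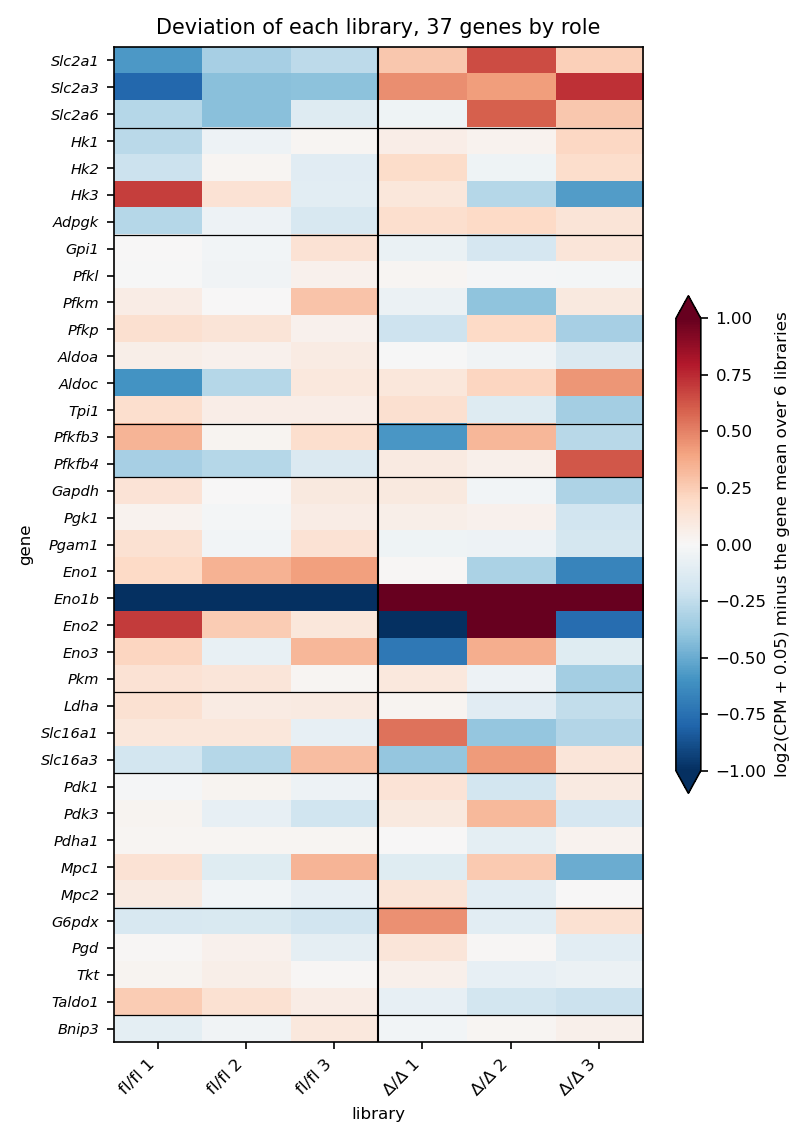
Heat map of the members (rows, by role) in the 6 libraries (columns), coloured by log2 (CPM + 0.05) minus the gene's mean over the libraries, on a scale from -1 to 1. Slc2a1, Slc2a3 and Eno1b are low in all fl/fl and high in all Δ/Δ columns, and 13 of the 37 tested members have their lowest value in Δ/Δ 3.

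Marker lists of cell types and states show how the libraries differ in other ways. The cDC1 list (13 genes) summed to 13589, 13609 and 13301 CPM in the fl/fl group against 10729.8, 12834 and 11407 CPM in Δ/Δ, with Wdfy4 the most abundant and no marker at 0, so the cells carried the markers of their label. Of these 13, Xcr1, Tlr3, Snx22 and Ppt1 passed as lower by edgeR and none as higher, where 1 was higher at an unadjusted p under 0.05, 1 by DESeq2 and 0 by limma-voom. The cDC2 list (11 genes) summed to 227, 250.3 and 373 CPM and 521, 613 and 755 CPM, with Klf4 the most abundant in fl/fl and Cd209a in Δ/Δ, and Cd209a, Klf4 and Cd4 passed as higher. Of 10 monocyte and macrophage genes, 8 tested, Adgre1 and Ccr2 passed as higher, and the list summed to 2451, 2786 and 2871 CPM and 3818, 3468 and 4315 CPM, most of it Lyz2. Of 9 pDC genes, 7 tested, Ccr9 passed as higher, and the sums were 265, 246 and 247 CPM and 266, 306 and 318 CPM, with Bst2 the most abundant over the 6 libraries together. As lower, none of the cDC2, monocyte and macrophage or pDC genes passed by edgeR, where 1, 0 and 1 were lower at an unadjusted p under 0.05, 0, 0 and 1 by DESeq2, and 0 in each list by limma-voom. These calls moved with the libraries used. Without fl/fl 1, Cd209a, Ccr9 and Ccr2 still passed and the other 7 had adjusted p from 0.0569 to 0.158, and without fl/fl 2 Cd209a and Ccr9 passed and the other 8 had 0.0501 to 0.173. Without fl/fl 3, Tlr3, Snx22, Ppt1, Klf4 and Adgre1 had 0.0508 to 0.130, without Δ/Δ 2 Snx22 had 0.0602, and without Δ/Δ 3 Ppt1, Klf4, Cd4 and Adgre1 had 0.0502 to 0.0774. The sums of the cDC2, monocyte and macrophage and, by a small margin in Δ/Δ 1, pDC lists were higher in all Δ/Δ libraries, as the transporters were, and the cDC1 sum was lower in all of them. Their part in the transporters' difference was not tested.

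Other lists varied within the Δ/Δ group. The mature dendritic cell list (10 genes, with Fscn1 the most abundant over the 6 libraries together) summed to 1236, 879 and 1085 CPM in the fl/fl group and to 357, 1993 and 550.3 CPM in Δ/Δ, highest in Δ/Δ 2 as were Pfkp, Eno2 and Eno3. The proliferation list (15 genes, led by Mki67) summed to 1935, 1764 and 1279.7 CPM and to 1762, 809.9 and 544 CPM, with all 15 log2 differences negative (median -0.76), and Δ/Δ 3, lowest here, was also lowest for lower glycolysis and lactate genes. The immediate early list (12 genes, led by Btg2 in 4 libraries and by Zfp36 in Δ/Δ 2 and Δ/Δ 3) summed to 864, 788 and 1181 CPM and to 1077, 2116 and 2530 CPM. In none of these 3 lists did a gene pass by edgeR, where the counts at an unadjusted p under 0.05 were 1 higher and 1 lower of mature dendritic cell genes, 0 and 0 of proliferation genes, and 8 and 0 of immediate early genes. DESeq2 gave 1 and 0, 0 and 0, and 4 and 0, and limma-voom 0 in all 3. Whether maturation, cycling or the early response shaped the members' values was not tested. Neutrophil genes (10, led by S100a9 over all libraries together, with Ly6g and Elane at 0 in all libraries) summed to 4.62 to 21.3 CPM in the fl/fl group against 0.851 to 9.37 CPM in Δ/Δ, and basophil, mast cell and eosinophil genes (10, led by Il5ra, with Epx at 0) to 3.08 to 23.7 CPM over all libraries. The B cell list (8 genes, led by Cd79b over all libraries together, with Igll1 at 0) had 13.1 to 50 CPM, and the T and NK cell list (9, led by Cd3g, with Prf1 at 0) at most 1.26 CPM.

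**Figure D5:**
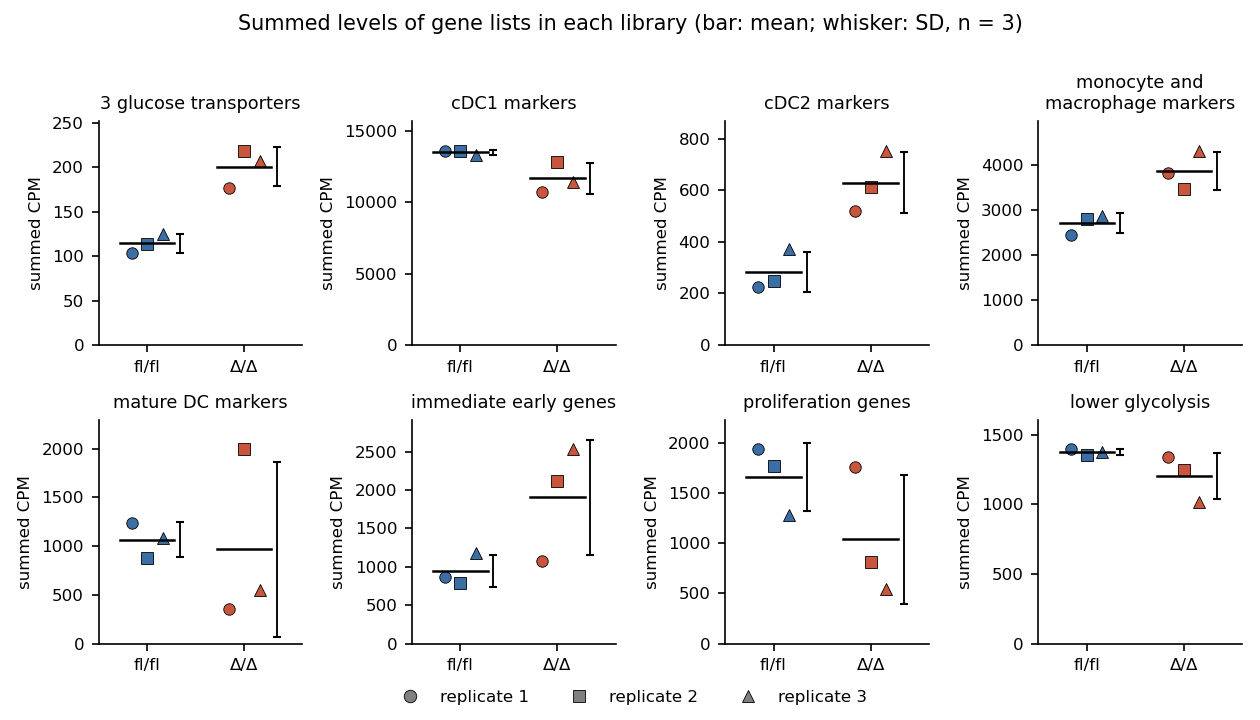
Summed CPM of gene lists in each of the 6 libraries (points), with the mean (bar) and SD (whisker, n = 3) of fl/fl and Δ/Δ. The sums of the 3 transporters, of cDC2 and of monocyte and macrophage genes are higher in all Δ/Δ libraries, and the mature dendritic cell sum is highest in Δ/Δ 2 at 1993 CPM.

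The rest of glucose metabolism was read from lists of genes outside the 38. In 6 lists of neighbouring metabolism with 118 genes, 85 were tested and none passed by edgeR in either direction, with 9 higher and 11 lower at an unadjusted p under 0.05, 4 and 5 by DESeq2, and 0 by limma-voom. Their median log2 difference was -0.05. By list, the tested genes and medians were 12 and -0.04 for other glycolysis and gluconeogenesis genes, 13 and -0.13 for other sugar and monocarboxylate carriers, 12 and -0.05 for other pentose phosphate genes, 8 and 0.07 for other pyruvate dehydrogenase genes, 24 and -0.05 for the tricarboxylic acid cycle, and 16 and -0.24 for NRF2 and its targets. Among the other carriers none passed as higher by edgeR, 1 was higher at an unadjusted p under 0.05, 1 by DESeq2 and 0 by limma-voom. Of 24 tested genes among hypoxia-inducible factors and their targets (30 in the list, median 0.12), 1 passed by edgeR, Ndrg1, as lower, and 0 as higher, where 7 were higher at an unadjusted p under 0.05, 2 by DESeq2 and 0 by limma-voom. At that unadjusted limit 2 were lower, Ndrg1 and Mxi1, beside 1327 higher and 1169 lower of all 12894 genes. The 7 higher were Egln3, Ddit4, P4ha1, Egln1, Narf, Kdm3a and Vhl. Their log2 differences ran from 0.14 (Vhl) to 1.85 (Egln3), with edgeR adjusted p from 0.123 to 0.246. Egln3 was low, at 0.462, 0.259 and 0.932 CPM against 1.18, 2.98 and 1.80 CPM. Ndrg1, which hypoxia induces in many cells, fell from 89.8, 90.5 and 87.2 CPM to 64.8, 52.9 and 61.0 CPM, at an edgeR adjusted p of 0.0148 that became 0.0850, 0.0850 and 0.0547 when fl/fl 1, 2 or 3 was left out (range over the alternatives 7.20e-07 to 0.0850). Hif1a itself measured 87.0 to 91.3 CPM in the fl/fl group against 90.4 to 112 CPM in Δ/Δ, with overlapping groups. Of 24 tested sugar-sensing and growth regulators (28 in the list, median 0.02), 1 passed by edgeR, Mtor, as lower, and 0 as higher, where 3 were higher at an unadjusted p under 0.05, 2 by DESeq2 and 0 by limma-voom. Mtor, the kinase of a nutrient-sensing complex, fell from 118, 125 and 124 CPM to 102, 85.1 and 92.0 CPM. Its edgeR adjusted p of 0.0356 became 0.128, 0.159 and 0.128 when fl/fl 1, 2 or 3 was left out, and 0.0879 without Δ/Δ 3 (range over the alternatives 0.000588 to 0.159). With the replicate number as a term, the edgeR adjusted p of Mtor was 0.0680. Myc had overlapping groups, at 96.4 to 109 CPM in the fl/fl group against 94.6 to 125 CPM in Δ/Δ. Txnip, chosen for mention after its values were seen, lowers glucose uptake by acting on GLUT1 and is itself induced by glucose. It measured 370.3, 399.5 and 511 CPM against 674, 596 and 1023 CPM without overlap, with an edgeR adjusted p of 0.0838 that became 0.0467 without Δ/Δ 1 and 0.0409 without Δ/Δ 2 (range over the alternatives 0.000385 to 0.308).

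By position, Slc2a1, Eno1 and Pgd share chromosome 4 with Jun (chr4:95049034-95052222), one of the deleted genes, as does Mtor. Genes tested within 1 Mb were counted around the transporters and enolases, and those that passed are named here after their values were seen. Around Slc2a1, 1 of 19 passed, Hivep3, which fell from 19.7, 20.6 and 14.1 CPM to 9.41, 5.78 and 9.33 CPM. Around Slc2a3, 2 of 15 passed, Necap1 (33.1, 34.3 and 34.4 CPM against 41.6, 43.9 and 46.0 CPM) and Clec4a1 (12, 11.9 and 16.4 CPM against 25.6, 31.3 and 28.5 CPM), and the median log2 difference of the 15 was 0.37. The medians around Slc2a1 (0.08), Slc2a6 (0.01) and Eno1 (0.01) were lower, and the difference between these windows was not tested. Of all genes tested, 2.03% passed as higher and 1.85% as lower. Around Eno1, 1 of 24 passed, the predicted gene Gm13092 (0.694, 0.333 and 0.339 CPM against 7.62, 4.66 and 4.88 CPM), around Slc2a6 0 of 30, and around Eno1b 0 of 1. Leaving out a library moved some of these edgeR calls. Hivep3 went from an adjusted p of 0.0444 to 0.190, 0.189 and 0.0643 without fl/fl 1, 2 and 3 and 0.0775 without Δ/Δ 3, and Clec4a1 from 0.0152 to 0.0953 and 0.0928 without fl/fl 1 and 2. Necap1 went from 0.0380 to 0.195, 0.176 and 0.128 without fl/fl 1, 2 and 3, and to 0.0624 and 0.0874 without Δ/Δ 2 and 3. With the replicate number as a term, the edgeR adjusted p was 0.0798 for Hivep3 and 0.0649 for Necap1. With no filter on low counts Necap1 had 0.0504. Over all alternatives the adjusted p ran from 0.000129 to 0.190 for Hivep3, 0.00468 to 0.195 for Necap1, 1.11e-07 to 0.0953 for Clec4a1 and 5.15e-14 to 0.0452 for Gm13092.

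Other members share sequence with annotated copies too. Annotated copies at 90% identity or more over at least 50% of the copy numbered 247 for 18 of the 38 genes, of which 235 are pseudogenes and 179 had a read. Gapdh has 189 of them, with 1315 reads over the 6 libraries beside 67076 on Gapdh itself, and adding them left its log2 difference at -0.15. The 3 copies of Mpc1 held 681 reads, beside 4028 on Mpc1, all of them on Mpc1-ps. Gm1840, a pseudogene of Gpi1 named after its values were seen, had 61, 67 and 58 reads in fl/fl and 238, 178 and 67 reads in Δ/Δ libraries. It was high in Δ/Δ 1 and Δ/Δ 2 only, with an edgeR adjusted p of 0.0996 that became 0.00760 without Δ/Δ 3 (range over the alternatives 0.00729 to 0.320). Exon bases are shared with a gene of the opposite strand by 10 members and with one of the same strand by 2. For Slc2a1 these are 105 bases of Gm12868, which had 7 reads in all libraries. Slc2a3, Slc2a6, Eno1 and Eno1b share none.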

How the data were processed

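RNA-seq counts of 6 libraries, 3 of each genotype, were compared for 38 genes of glucose metabolism. The authors mapped read pairs of 75 bases to mm10 (GRCm38) by 2-pass alignment in STAR 2.6.1a, annotated with Gencode vM19, and deposited raw counts of uniquely mapped reads on genes, which are not normalised. Neither labels nor methods give the strand column. The members and lists were chosen with earlier results of these data known. Names and positions came from GENCODE M21, which holds 54495 of the 54532 identifiers. The genotype term was fitted with edgeR 4.0.16 in R 4.3.3 on genes kept by filterByExpr (minimum count 10, minimum total 15), with TMM factors, a quasi-likelihood test and Benjamini-Hochberg adjustment over all genes tested, and was tried on simulated data. RPKM used the merged exons of GENCODE basic transcripts. Copies of members were found with BLAST+ 2.17.0, and tables and plots were made with Python 3.11.15, numpy 2.4.6, pandas 2.3.3 and matplotlib 3.10.9. Alternatives were size factors of the DESeq2 type, DESeq2 1.42.0, limma 3.58.1 (voom), no filter, a stricter filter (10 reads in 3 libraries, mean 1 CPM), leaving out each library, the replicate number as a term, copies added to members, and a limit of 1 on the log2 difference. Genes named are the members, the deleted genes, the sort markers, the genes that passed in other lists, and the most abundant and defining markers of cell lists. Other genes, among them Txnip, Hif1a, Myc and the neighbours and copies of members, were chosen for mention after their values were seen. Library totals ran from 21693217 to 26788296 reads. The raw sequence reads and the study's other experiments were not analysed.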

Additional observations from a re-analysis of the deposited data

How the results depend on the processing

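Over 13 alternatives to the test, filter, scaling and libraries, 459 of 480 values of the tested members kept their side of the threshold, 18 passed newly, 3 no longer passed (Slc2a1 without each fl/fl library) and 0 reversed a call. The members' median log2 difference stayed between -0.06 and 0.00. Over all genes, 500 passed by edgeR, against 1104 by DESeq2, 762 with no filter and 240 with the limit of 1 on the log2 difference, and 95 to 1320 with a library left out. Of members passing as higher there were 3, against 6 by DESeq2, 2 with copies added to members, where Eno1b is counted within Eno1, and 2 to 4 with a library left out. Of members passing as lower there were 0, against 1 with size factors of the DESeq2 type, by limma-voom, with the stricter filter and with the replicate block, 2 by DESeq2 and with no filter, and 0 to 3 with a library left out. The cause of these shifts was not tested. With the replicate block, 417 of all genes passed. Deviations from the group mean correlated across genes at -0.148 to 0.2 between libraries of the same number. Other pairs of a Δ/Δ and a fl/fl library gave -0.221 to 0.152. The ranges overlapped, so no pairing by number was seen, but so few pairs cannot exclude one. The design has 3 libraries a group and a biological coefficient of variation of 0.181. Counts of copies such as Eno1 and Eno1b depend on uniquely mapped reads, levels between genes on the length used, and protein, flux and glucose uptake were not measured in these libraries.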
